A study of Mus musculus with 4 samples.

Results

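Transcripts of 6 genes of the glucocorticoid pathway, *Fkbp5*, *Tsc22d3*, *Zbtb16*, *Sgk1*, *Sult1a1* and *Nr3c1*, were followed across the cell classes of transplanted mouse hearts. They were picked by symbol from the 30905 genes of the matrix, and each symbol matched 1 row. The choice was made with results of these data in view, so their levels across classes and libraries are given as a description, without a test. The study profiled 4 heart grafts placed in the abdomen of male C57BL/6J recipients, and the grafts were taken on day 5 after transplantation. The 2 allogeneic grafts came from BALB/c donors (strain Balb/C in the labels), and the 2 syngeneic grafts came from C57BL/6J donors. All mice were young adults, and neither the labels nor the methods name a steroid or another drug for any recipient. Each graft was digested with enzymes to single cells, red cells were lysed, and 3' transcript ends were counted as unique molecular identifiers (UMIs).

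The deposited matrix held 53824 cells from 4 libraries, told apart only by the suffix of the cell barcode. No label ties a suffix to a graft, so strain, rejection, animal and library preparation cannot be told apart, and no allogeneic graft was compared with a syngeneic one. Libraries 1 to 4 held 13112, 13907, 13500 and 13305 cells with a median of 4807.5, 4759, 6319 and 9784 UMIs. After the filters 42393 cells remained. Among the 53516 barcode sequences, 308 occurred in more than 1 library, with 40 to 60 shared by each pair of libraries. Marker genes named 11 cell classes, and 6418 cells stayed unnamed. Endothelial-like cells were the most numerous class (12516 cells, in clusters that held 3 to 8 of 8 markers such as *Cdh5* and *Kdr*), followed by macrophage-like (8611), fibroblast-like (5191), granulocyte-like (3103), T/NK-like (1862), pericyte-like (1785), dendritic-like (1252), smooth muscle-like (731), cardiomyocyte-like (380), B-like (322) and erythroid-like cells (222). Several clusters came almost wholly from 1 library. Of the 3644 cells of an endothelial-like cluster led by *Timp4* and *Car4*, 3612 were in library 2, and all but 4 of the 640 cells of an endothelial-like cluster led by *Ubd* and *Gbp2b* were in library 4. The dendritic-like class had a median of only 1170.5 UMIs, and 1133 of its cells were in library 4. With finer clusters (resolution 1.6) only 130 cells of library 4 were named dendritic-like and 1010 fell into an unnamed shallow cluster, which limits what the dendritic-like levels stand for.

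Glucocorticoids cross the cell membrane and bind the glucocorticoid receptor, which *Nr3c1* encodes. Without hormone the receptor is held in the cytosol by heat shock chaperones and immunophilins. With hormone it moves to the nucleus, where it binds DNA at palindromic response elements or acts through other transcription factors. *Fkbp5* encodes an immunophilin that lowers the receptor's affinity for hormone and is itself a target of the receptor, *Tsc22d3* encodes the anti-inflammatory leucine zipper protein GILZ, and *Zbtb16* encodes the zinc finger factor PLZF. *Sgk1* encodes a kinase that regulates ion channels and transporters and is also a target of the mineralocorticoid receptor, and *Sult1a1* encodes a phenol sulfotransferase. In the heart, receptor signalling is known in cardiomyocytes, vessels and immune cells, and many cells lower *Nr3c1* transcript after exposure to hormone.

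In the mouse genome build GRCm38, the build that mm10 names, the 6 are protein-coding genes of the GENCODE M21 annotation: *Fkbp5* at chr17:28399094-28517527 on the minus strand, *Tsc22d3* at chrX:140539528-140600659 on the minus strand, *Zbtb16* at chr9:48654297-48836222 on the minus strand, *Sgk1* at chr10:21882184-21999903 on the plus strand and *Sult1a1* at chr7:126672865-126676432 on the minus strand. The position of *Nr3c1* is given with its levels. RefSeq promoters, 250 bases before to 50 bases after a transcript start, were at hand for 4 of the 6 genes, with 6 starts for *Sgk1*, 3 for *Tsc22d3* and 1 each for *Fkbp5* and *Sult1a1*. They were searched for the receptor's palindromic element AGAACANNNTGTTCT, which reads the same on both strands. It was found in 3 of 32851 mouse promoters (0.00913%), and 1 of these 3 was a promoter of *Sgk1*. The looser palindrome GNACANNNTGTNC, which overlaps the first, was present in 0.475% of promoters and, among the 11 promoters of these genes, only at the same place. The single arm AGAACA, searched on both strands, was present in 19.0% of promoters and in 5 of the 11. A match is a description of the sequence and not evidence of binding in these hearts. The 250 bases before the *Sgk1* start are shown because they hold the full palindrome (RefSeq, GRCm38.p6, plus strand, palindrome in capitals, with 174 bases between it and the start). The *Fkbp5* promoter (minus strand) is shown beside it as one that holds neither the palindromes nor the arm.
Sgk1, chr10:21993640-21993889: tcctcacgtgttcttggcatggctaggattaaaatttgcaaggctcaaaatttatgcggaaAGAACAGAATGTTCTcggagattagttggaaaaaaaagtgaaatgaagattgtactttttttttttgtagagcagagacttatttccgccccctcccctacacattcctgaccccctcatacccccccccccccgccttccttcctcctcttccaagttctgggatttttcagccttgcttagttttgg
Fkbp5, chr17:28486150-28486399: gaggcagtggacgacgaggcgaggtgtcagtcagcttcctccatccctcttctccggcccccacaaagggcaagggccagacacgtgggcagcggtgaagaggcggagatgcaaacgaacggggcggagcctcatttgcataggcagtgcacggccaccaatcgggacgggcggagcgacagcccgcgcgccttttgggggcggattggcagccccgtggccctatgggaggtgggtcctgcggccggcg

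Levels are UMIs of a gene per 1000000 UMIs of non-mitochondrial genes (CPM), pooled over the cells of a class or of a class within a library. Intervals are exact Poisson 95% intervals for levels and exact conditional 95% intervals for folds, and they cover counting error only, since cells of 1 library share 1 graft. A library is used within a class where it has at least 50 cells. Medians over libraries use only these libraries, so classes ordered by median do not all rest on the same libraries. Over all kept cells, the levels in libraries 1 to 4 were 53.2, 119, 22.0 and 29.0 CPM for *Fkbp5*, 237, 138, 117 and 91.4 CPM for *Tsc22d3* and 65.8, 47.6, 6.11 and 2.43 CPM for *Zbtb16*. The corresponding levels were 529.5, 741, 334 and 153 CPM for *Sgk1*, 71.6, 101, 28.8 and 3.92 CPM for *Sult1a1* and 167, 75.7, 146 and 68.4 CPM for *Nr3c1*. These totals differ in the mix of classes, so the classes were taken one at a time. The genes did not share 1 leading class: *Sgk1* and *Sult1a1* were highest in endothelial-like cells of all 4 libraries, *Fkbp5* in fibroblast-like cells of libraries 1 and 3 and endothelial-like cells of libraries 2 and 4, and *Tsc22d3* in B-like cells of libraries 3 and 4, the only ones with at least 50 of them. *Zbtb16* was highest in fibroblast-like, pericyte-like, smooth muscle-like and endothelial-like cells of libraries 1, 2, 3 and 4, and *Nr3c1* in pericyte-like cells of libraries 1 and 3, T/NK-like cells of library 2 and endothelial-like cells of library 4.

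**Figure D1:**
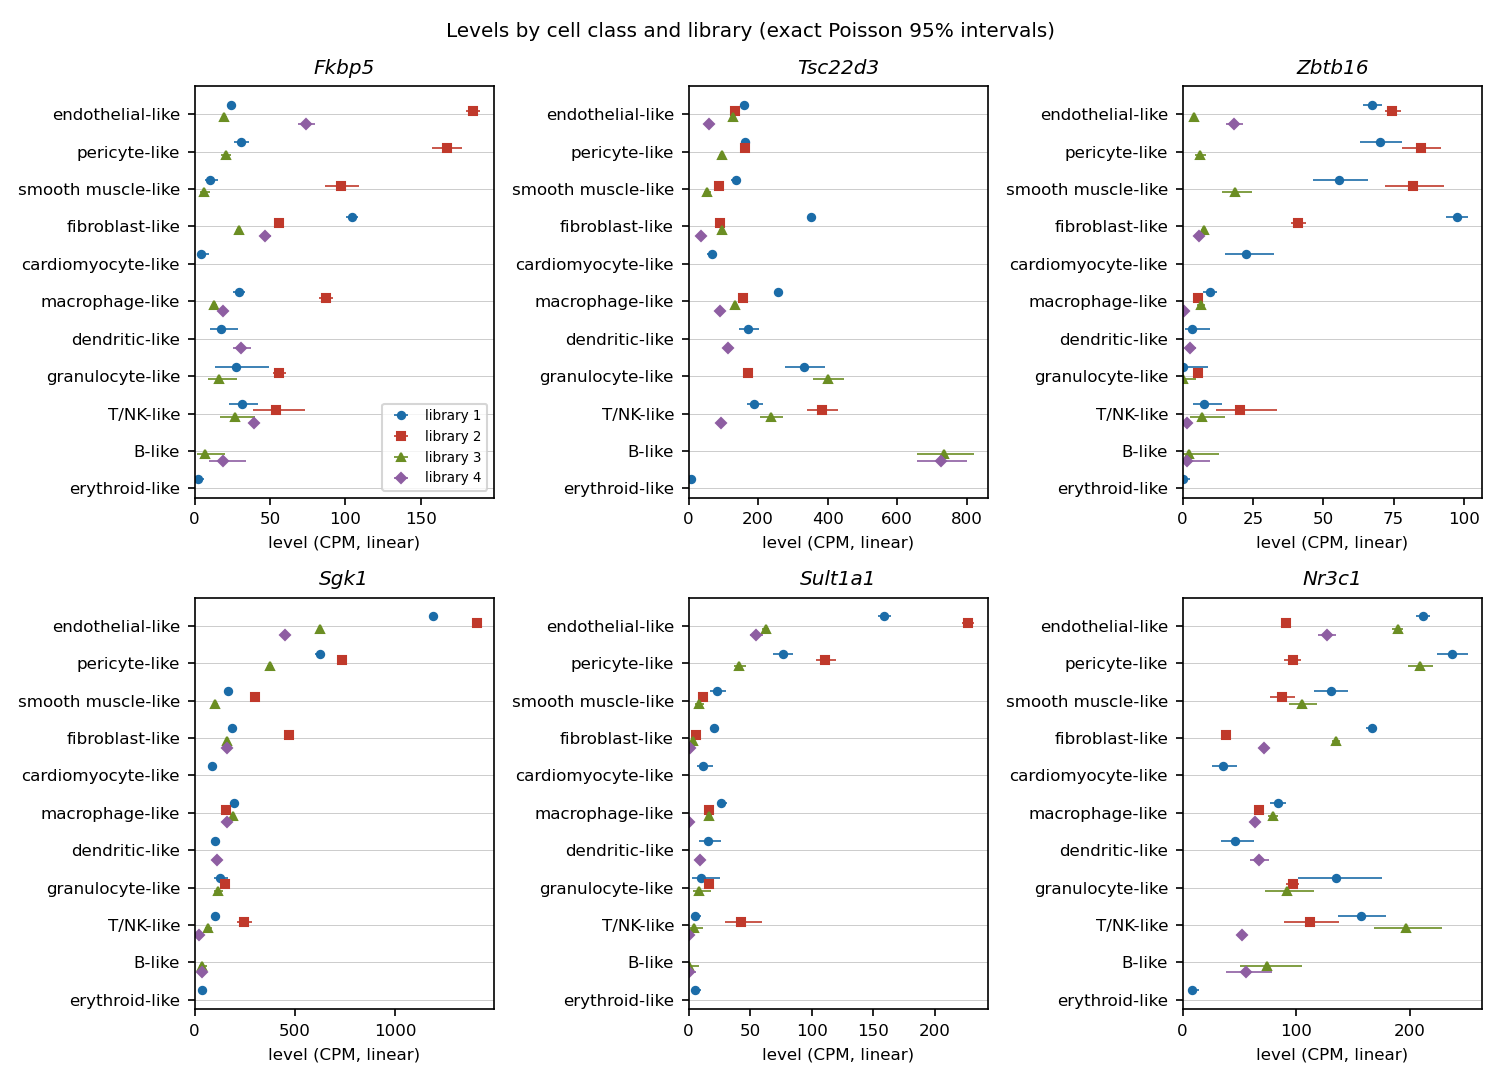
Level of each gene (CPM, linear axis) by cell class and library, with exact Poisson 95% intervals; units of under 50 cells are left out. *Fkbp5* in library 2 lies far to the right of the other libraries in endothelial-like, pericyte-like and smooth muscle-like cells (185, 167 and 97.3 CPM), whereas *Zbtb16* is high there in both library 1 and library 2.

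*Nr3c1*, the gene of the receptor (GRCm38, chr18:39410545-39519421, minus strand), was detected in every class. Its pooled level was highest in pericyte-like cells at 174 CPM (95% interval 168 to 180.2) and in endothelial-like cells at 155 CPM (95% interval 152 to 157), and lowest in cardiomyocyte-like cells at 36.7 CPM (95% interval 27.5 to 48.0) and erythroid-like cells at 8.89 CPM (95% interval 4.86 to 14.9). The pericyte-like cells also held endothelial markers, as given further on with *Sult1a1*. In endothelial-like cells it was 211, 91.1, 189 and 127 CPM in libraries 1 to 4, in pericyte-like cells 237, 96.6 and 209 CPM in libraries 1 to 3, and in fibroblast-like cells 166, 38.1, 135 and 71.5 CPM in libraries 1 to 4. In all 3 classes library 1 was the highest and library 2 the lowest, by 2.32-fold (95% interval 2.22 to 2.42), 2.45-fold (95% interval 2.23 to 2.70) and 4.36-fold (95% interval 4.04 to 4.70). Of the 794 fibroblast-like cells of library 2, 787 lay in a cluster with 1 cell of library 1. Cluster and library thus cannot be told apart in the fibroblast-like ratio. Smooth muscle-like cells had the same order of library 1 above library 2, with 130.0, 87.1 and 105 CPM in libraries 1 to 3 and a smaller ratio of 1.49-fold (95% interval 1.26 to 1.77). Macrophage-like cells were nearly level, at 83.7, 67.4, 79.4 and 64.0 CPM, a spread of 1.31-fold (95% interval 1.20 to 1.42). T/NK-like cells went another way, with 157, 112, 196 and 52.4 CPM and library 4, which held 1399 of the 1862 cells, lowest. The kinds of T/NK-like cells differed between libraries, as given further on with *Tsc22d3*. By the median over libraries the order was pericyte-like (209 CPM), endothelial-like (158 CPM), T/NK-like (134 CPM), smooth muscle-like (105 CPM), fibroblast-like (103 CPM), granulocyte-like (96.6 CPM), macrophage-like (73.4 CPM), B-like (64.9 CPM) and dendritic-like (56.8 CPM). Each of these classes overlapped its neighbour in the range over libraries, except granulocyte-like (96.6 CPM (range 91.9 to 134)) and macrophage-like cells (73.4 CPM (range 64.0 to 83.7)).

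*Fkbp5* was highest in library 2 in endothelial-like, pericyte-like, smooth muscle-like and macrophage-like cells. In endothelial-like cells it was 24.2, 185, 19.8 and 74.0 CPM in libraries 1 to 4, so that library 2 exceeded library 3 by 9.33-fold (95% interval 8.62 to 10.1) and library 4 lay between. In pericyte-like cells it was 31.1, 167 and 20.6 CPM and in smooth muscle-like cells 10.5, 97.3 and 6.57 CPM in libraries 1 to 3, with ratios of library 2 to library 3 of 8.12-fold (95% interval 6.81 to 9.74) and 14.8-fold (95% interval 9.19 to 25.3). Library 2 was thus high and libraries 1 and 3 low in all 3 vessel classes. Macrophage-like cells had the same leading library, at 29.2, 86.9, 13 and 18.6 CPM in libraries 1 to 4, a ratio of 6.67-fold (95% interval 5.76 to 7.75) between libraries 2 and 3. Fibroblast-like cells did not: there library 1 led with 104 CPM against 56.1, 29.2 and 47.0 CPM in libraries 2, 3 and 4. T/NK-like cells held between 26.6 and 54.0 CPM, and library 4, with most of these cells, had 39.4 CPM (95% interval 36.8 to 42.1). Granulocyte-like cells had 27.4, 56.1 and 16.4 CPM in libraries 1 to 3. Cardiomyocyte-like cells of library 1, the only library with enough of them, had 4.03 CPM (95% interval 1.31 to 9.41), and erythroid-like cells of the same library 2.10 CPM (95% interval 0.433 to 6.14). A shallow unnamed cluster led by *Acta1* and *Ankrd1* (865 cells) had 8.07, 112, 15.3 and 34.0 CPM in libraries 1 to 4, from 4, 22, 3 and 9 UMIs. At resolution 0.4 the cardiomyocyte-like class held 1243 cells, 753, 161, 156 and 173 of libraries 1 to 4. The cardiomyocyte-like level thus depends on how clusters were named. By the median over libraries fibroblast-like (51.5 CPM) and endothelial-like cells (49.1 CPM) came first, and their ranges overlapped with those of T/NK-like, pericyte-like, granulocyte-like, macrophage-like and smooth muscle-like cells. In libraries 1 to 3 alone the middle level was 24.2 CPM in endothelial-like and 31.1 CPM in pericyte-like cells.

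The share of endothelial-like cells with at least 1 UMI of *Fkbp5* was likewise highest in libraries 2 and 4, at 12.6, 54.1, 15.4 and 45.4% in libraries 1 to 4. After thinning each cell to 1000 UMIs the shares were 2.46, 15.7, 1.96 and 8.35%, in the order of the levels. In cardiomyocyte-like cells of library 1, where only erythroid-like cells had a lower level, 1.51% of cells had a UMI and 0.303% after thinning, at a median of 2709 UMIs against 4648 in endothelial-like cells of library 1.

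*Tsc22d3* was highest in B-like cells, at 710.3 CPM (95% interval 667 to 756), and 85.7% of them had a UMI, 43.3% after thinning. The level was 735 CPM in library 3 and 726 CPM in library 4, a ratio of 1.01-fold (95% interval 0.872 to 1.17), so these libraries did not differ beyond counting error. Libraries 1 and 2 had 41 and 46 B-like cells and were not used. Granulocyte-like cells came next, with 331, 171 and 400.3 CPM in libraries 1 to 3, and library 2 was the lowest of them. Library 4 had only 7 cells in this class. Its 936 unnamed cells held 34676 CPM of *S100a8* and *S100a9*, and 765 of them lay in a cluster with *Hdc* among its leading genes. These cells are outside the granulocyte-like levels, ranges and medians. The libraries sat in different clusters: 2057 of the 2750 cells of library 2 were in a cluster led by *Retnlg* and *Cd177*, whereas 85 of 94 and 248 of 252 cells of libraries 1 and 3 were in one led by *Camp* and *Ltf*. Within the *Camp* cluster *Tsc22d3* was 347, 259.7 and 405 CPM in libraries 1 to 3, and it was 157 CPM in the *Retnlg* cluster of library 2. T/NK-like cells had 189, 384, 236 and 93.1 CPM, with library 2 highest and library 4 lowest, by 4.13-fold (95% interval 3.65 to 4.66). At resolution 1.6 a T/NK-like cluster led by *Lef1* and *Gimap3* held 163 cells of library 2 and 114 of library 4. Another, led by *Gzmb* and *Gzma*, held 4 and 1285. Cell kind and library thus cannot be told apart between libraries 2 and 4 in T/NK-like cells, for any of the 6 genes. The T/NK-like cells of library 2 carried transcripts of other classes, with a summed level of 1363 CPM over 8 endothelial markers against 215, 492 and 58.9 CPM in libraries 1, 3 and 4, and 2168 CPM of the granulocyte transcripts *S100a8* and *S100a9*. Their part in the *Tsc22d3* level was not tested.

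In fibroblast-like, macrophage-like, endothelial-like and smooth muscle-like cells *Tsc22d3* was highest in library 1. It was 352, 91.2, 95.9 and 37.1 CPM in fibroblast-like cells, where library 1 exceeded library 4 by 9.49-fold (95% interval 8.71 to 10.4). It was 258, 157, 133 and 91.0 CPM in macrophage-like cells and 159, 134, 128 and 57.7 CPM in endothelial-like cells, with ratios of library 1 to library 4 of 2.83-fold (95% interval 2.69 to 2.98) and 2.75-fold (95% interval 2.5 to 3.04). The endothelial-like ratio rested on library 4, without which the highest and the lowest library differed 1.24-fold. In pericyte-like cells libraries 1 and 2 were alike (163 and 161 CPM) and library 3 was lower (95.2 CPM). The order by median was B-like (730.5 CPM), granulocyte-like (331 CPM), T/NK-like (212 CPM), pericyte-like (161 CPM), macrophage-like (145 CPM), dendritic-like (143 CPM), endothelial-like (131 CPM), fibroblast-like (93.5 CPM) and smooth muscle-like (87.1 CPM). Among these only the B-like class was separated from its neighbour by a gap between the ranges over libraries.

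*Zbtb16* was found mainly in stromal and vascular classes. The pooled levels were 52.5 CPM (95% interval 47.6 to 57.7) in smooth muscle-like, 50.5 CPM (95% interval 47.4 to 53.8) in pericyte-like, 44.5 CPM (95% interval 43.2 to 45.8) in endothelial-like and 38.2 CPM (95% interval 37.0 to 39.4) in fibroblast-like cells. The immune classes lay between 2.23 CPM in macrophage-like and 4.85 CPM in granulocyte-like cells. No UMI was found in 222 erythroid-like cells, with a 95% interval up to 2.34 CPM. A UMI was seen in 22.5% of endothelial-like cells (median depth 5549 UMIs), beside 2.76% of the deeper macrophage-like cells (14262 UMIs), and after thinning in 4.68% and 0.376%.

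Libraries 1 and 2 were high in *Zbtb16*. In endothelial-like cells *Zbtb16* was 67.5, 74.6, 4.0 and 18.3 CPM in libraries 1 to 4, in pericyte-like cells 70.3, 84.7 and 6.10 CPM and in smooth muscle-like cells 55.4, 82.0 and 18.6 CPM in libraries 1 to 3. Library 3 was the lowest in each of these classes, and library 2 exceeded library 3 by 18.6-fold (95% interval 15.7 to 22.3) in endothelial-like cells. Without library 3 the ratio of the highest to the lowest library there was 4.08-fold, from library 2 to library 4. In fibroblast-like cells the levels were 97.5, 41.1, 7.52 and 5.75 CPM, with library 1 above library 2 and both above libraries 3 and 4. The cardiomyocyte-like cells of library 1 held 22.6 CPM (95% interval 15 to 32.6). By the median over libraries the order was pericyte-like (70.3 CPM), smooth muscle-like (55.4 CPM), endothelial-like (42.9 CPM) and fibroblast-like (24.3 CPM), and the ranges of these 4 classes overlapped. The pericyte-like and smooth muscle-like medians rest on libraries 1 to 3, the others on libraries 1 to 4. In libraries 1 to 3 alone the middle endothelial-like level was 67.5 CPM, above that of smooth muscle-like cells. In endothelial-like and pericyte-like cells library 1 was thus nearer to library 2 for *Zbtb16* and nearer to library 3 for *Fkbp5*.

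*Sgk1* was most abundant in endothelial-like cells in all 4 libraries. The pooled level was 1016 CPM (95% interval 1010.0 to 1022) in endothelial-like cells, 566 CPM (95% interval 556 to 577) in pericyte-like and 233 CPM (95% interval 229.9 to 236) in fibroblast-like cells, and 36.9 CPM (95% interval 34.6 to 39.4) in T/NK-like cells. By library the endothelial-like level was 1189.5, 1409, 627 and 452 CPM, with libraries 2 and 1 above libraries 3 and 4 and a ratio of 3.12-fold (95% interval 3.02 to 3.23) between libraries 2 and 4. A UMI was present in 89.6, 91.4, 88.7 and 83.0% of the endothelial-like cells of libraries 1 to 4, and in 59.4, 68.7, 44.8 and 34.6% after thinning. In erythroid-like cells, which had the lowest pooled level, 16.2% had a UMI at a median of 7021.5 UMIs, and 3.24% after thinning.

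Pericyte-like cells had 624, 735 and 376 CPM of *Sgk1* in libraries 1 to 3 and smooth muscle-like cells 169, 299.6 and 103 CPM. In fibroblast-like cells library 2 stood apart, at 185, 469.8, 162 and 163 CPM in libraries 1 to 4, and the other libraries lay within 162 to 185 CPM. The fibroblast-like cells of library 2 were almost all in a cluster nearly absent from the other libraries. Macrophage-like cells were close to level at 196, 155, 190.4 and 159.9 CPM, a ratio of 1.27-fold (95% interval 1.18 to 1.35), although their subclusters differed, as given further on. T/NK-like cells had 103, 247, 68.2 and 24.2 CPM, high in library 2, whose T/NK-like cells also held the endothelial markers given above. The order by median was endothelial-like (908 CPM), pericyte-like (624 CPM), macrophage-like (175 CPM), fibroblast-like (174 CPM), smooth muscle-like (169 CPM), granulocyte-like (127 CPM) and dendritic-like (107 CPM). Endothelial-like and pericyte-like cells overlapped in range, and a gap separated pericyte-like (624 CPM (range 376 to 735)) from macrophage-like cells (175 CPM (range 155 to 196)). Fibroblast-like cells, with 469.8 CPM in library 2, overlapped the pericyte-like range.

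*Sult1a1* was the most restricted of the 6. The pooled level was 141 CPM (95% interval 139 to 144) in endothelial-like and 73.6 CPM (95% interval 69.8 to 77.5) in pericyte-like cells. In the other named classes it did not exceed 15.5 CPM (95% interval 13.4 to 17.8), found in granulocyte-like cells. No UMI was found in the 106 and 129 B-like cells of libraries 3 and 4, with 95% intervals up to 8.55 and 6.41 CPM. In endothelial-like cells it was 159, 226, 62.5 and 54.8 CPM in libraries 1 to 4, again with libraries 2 and 1 above libraries 3 and 4, and the ratio of library 2 to library 4 was 4.13-fold (95% interval 3.76 to 4.55). In pericyte-like cells it was 76.3, 111 and 41.2 CPM in libraries 1 to 3. The range over libraries of endothelial-like cells (111 CPM in the median) overlapped that of pericyte-like cells (76.3 CPM), and the next class by median, macrophage-like cells, was at 16.6 CPM and below both. T/NK-like cells reached 42.4 CPM in library 2 only, the library whose T/NK-like cells held endothelial markers, and 4.93, 4.62 and 0.269 CPM in libraries 1, 3 and 4. A UMI was present in 44.0% of endothelial-like cells and in 1.99% of T/NK-like cells, which were deeper (median 8453.5 UMIs), and after thinning in 13.2% and 0.761%.

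Macrophage-like cells had 26.7, 16.4, 16.9 and 0.378 CPM of *Sult1a1*, lowest by far in the 5872 cells of library 4. Of these, 3768 and 2074 lay in clusters 2 and 4, which were nearly absent from the other libraries. Within cluster 11, shared by libraries 1 to 3, the levels were 32.6, 70.5 and 17.4 CPM, with library 2 highest. Cluster 15, also shared by libraries 1 to 3, held 858 of the 1007 macrophage-like cells of library 2. There the levels were 11.5, 7.66 and 12.3 CPM, with library 2 lowest and overlapping intervals. Fibroblast-like cells had 20.4, 6.36, 3.75 and 0.947 CPM, with library 1 highest. The ratio to endothelial markers gives a scale for transcripts carried over from endothelial cells. Per 100 UMIs of the 8 endothelial markers there were 2.20, 2.61, 0.770 and 1.18 UMIs of *Sult1a1* in endothelial-like cells of libraries 1 to 4 and 2.13, 2.53 and 0.952 in pericyte-like cells of libraries 1 to 3. For *Sgk1* these numbers were 16.5, 16.3, 7.73 and 9.70 and 17.4, 16.7 and 8.69. The ratios in pericyte-like cells were thus close to those of endothelial-like cells of the same library, and the pericyte-like cells held 3575, 4388 and 4331 CPM of these markers against 7206, 8661, 8110.4 and 4656 CPM in endothelial-like cells. Pericyte *Sgk1* and *Sult1a1* were therefore not told apart from endothelial transcripts in this class. At resolution 1.6 the pericyte-like cells formed a cluster of 1040 cells that met the marker rule for no other class (median 3658.5 UMIs). A deeper cluster of 811 cells (median 15709 UMIs) also met it for endothelial cells. Levels in these finer clusters were not computed, and pooled levels weigh the deeper cells more. The other genes kept no such ratio. *Zbtb16* was at 0.936, 0.861 and 0.0493 per 100 marker UMIs in endothelial-like and 1.97, 1.93 and 0.141 in pericyte-like cells of libraries 1 to 3. *Nr3c1* was at 2.93, 1.05 and 2.33 and 6.63, 2.20 and 4.82, and *Fkbp5* at 0.336, 2.13 and 0.244 and 0.869, 3.81 and 0.476. The part of endothelial transcripts in the pericyte-like levels of these genes was not tested. In macrophage-like cells *Sult1a1* reached 13.9, 7.55, 7.57 and 0.825 per 100 marker UMIs in libraries 1 to 4, above the endothelial ratio in libraries 1, 2 and 3 and below it in library 4. In granulocyte-like cells it was at 2.08, 2.79 and 1.64 in libraries 1 to 3, and in T/NK-like cells at 2.29, 3.11, 0.939 and 0.457 in libraries 1 to 4. The part of endothelial transcripts in these levels was not tested.

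Endothelial-like cells carried all 6 genes above 20 CPM, from 4535 UMIs of *Zbtb16* to 103580 of *Sgk1*. With 10 CPM added to both levels, the highest library was at least 2-fold the lowest for 6 of 6 genes. The same held for 22.5% of the 6282 genes with at least 20 CPM in this class, with library 1 highest for 7.08%, library 2 for 4.36%, library 3 for 4.70% and library 4 for 6.32%. The genes were chosen in view of such levels, so nothing is read from that count. *Fkbp5*, *Zbtb16*, *Sgk1* and *Sult1a1* were highest in library 2, and *Tsc22d3* and *Nr3c1* in library 1. On the log2 scale, the median of the 6 genes relative to the mean of the 4 libraries was 0.50, 0.88, -0.55 and -0.68 in libraries 1 to 4, beside 0.01, 0.01, 0.04 and -0.08 over all genes of the class.

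Endothelial-like cells were divided into 11 subclusters, and the 6 genes were kept out of the genes that drew them. In library 2 the main subclusters were 1 led by *Pgf*, *Inhbb* and *Gdf15* (subcluster 2, 2388 cells) and 1 led by *Timp4*, *Ercc1* and *Car4* (subcluster 5, 1238 cells). *Fkbp5* was 185 and 228 CPM in them, *Zbtb16* 80.2 and 87.6 CPM, *Sgk1* 1462 and 1499 CPM, and *Sult1a1* 218 and 351 CPM. *Fkbp5* and *Sult1a1* were themselves among the 10 leading genes of subcluster 5. Another pair of library 2 subclusters, 6 and 9, had 133 and 105 CPM of *Fkbp5* and 28.5 and 13.6 CPM of *Zbtb16*. These subclusters were rich in *S100a8* and *S100a9* (18559.6 and 17286 CPM) and held 3952 and 3919.5 CPM of endothelial markers, against 9129.6 CPM in subcluster 2. *Fkbp5* and *Zbtb16* were thus lower in the subclusters that carried granulocyte transcripts than in subclusters 2 and 5, and their *Fkbp5* was still above that of every subcluster of libraries 1, 3 and 4. The part of those transcripts in the levels was not tested. A cluster of 1091 library 2 cells led by *Gm26870*, *Snhg9* and *Cxcl5* (cluster 16) was named endothelial-like from only 3 markers. Clusters led by *Gm26870* and *Snhg9* had fewer than 3 markers and no name at resolutions 0.4 and 1.6 and with doublets kept. Subclusters 6 and 9 may be largely these cells, so their endothelial-like name may depend on the setting.

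The cluster led by *Aplnr* and *C1qtnf9* (cluster 1) held 3760, 114 and 3122 cells of libraries 1, 2 and 3. At the finer division, subclusters 1, 3 and 4, with most cells of libraries 1 and 3, held 2, 2 and 1 cells of library 2. The arterial-like subcluster 8 held 88 cells of library 2. The library 2 cells of cluster 1 may thus be largely arterial-like, and cell kind and library cannot be told apart within it. *Fkbp5* was 24.1, 133 and 18.4 CPM there, and library 2 exceeded library 3 by 7.26-fold (95% interval 6.00 to 8.73). *Zbtb16* was 67.8, 54.5 and 3.90 CPM and *Nr3c1* 212, 82.6 and 192 CPM, with library 3 lowest for the first and library 2 lowest for the second. *Sgk1* did not follow the class: it was 1193, 738 and 647 CPM, with library 1 above library 2 by 1.62-fold (95% interval 1.51 to 1.74) and library 2 above library 3 by 1.14-fold (95% interval 1.06 to 1.22). The lead of library 2 for *Sgk1* in the class was absent within this cluster, while most endothelial-like cells of library 2 lay in other clusters. Whether the kind of library 2 cells in cluster 1 plays a part was not tested. *Sult1a1* was 159, 164 and 64.0 CPM, lowest in library 3.

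The arterial-like subcluster 8 was the only subcluster with over 50 cells in each of libraries 1, 2 and 3. *Fkbp5* was 16.5, 97.0 and 11.7 CPM there (90, 88 and 263 cells), *Zbtb16* 39.6, 19.4 and 3.40 CPM, *Sgk1* 647, 637 and 428 CPM, and *Nr3c1* 208, 84.5 and 180.0 CPM. The library 2 excess of *Fkbp5* and deficit of *Nr3c1* were present here too, though the library 2 cells may largely be those of cluster 1. *Sgk1* in libraries 1 and 2 did not differ beyond counting error, and *Zbtb16* was 25.4 to 58.9 CPM by its interval in library 1 and 10.6 to 32.5 CPM in library 2. The arterial-like cells had less *Sgk1* than the largest subcluster of the same library, which had 1388 CPM in library 1, 1462 CPM in library 2 and 689 CPM in library 3.

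Within library 1, subcluster 3, led by *Isg15*, *Ifit1* and *Egr1*, and subcluster 1, led by *Aplnr*, *Rasa4* and *C1qtnf9*, differed in opposite directions. Subcluster 3 had 1388 CPM of *Sgk1* against 792 CPM in subcluster 1, while *Tsc22d3* was 143 against 223 CPM and *Sult1a1* 142 against 232 CPM. The same pair of subclusters in library 3 (240 and 1086 cells) gave 916 against 560.1 CPM of *Sgk1* and 95.4 against 178 CPM of *Tsc22d3*, in the same direction, and 84.4 against 95.1 CPM of *Sult1a1*, which did not differ beyond counting error. *Zbtb16* in subcluster 1 was 58.1 CPM in library 1 and 3.92 CPM in library 3, so library 1 was far above library 3 within 1 subcluster as well. In library 4 the endothelial-like cells were almost all in subcluster 7, led by *Gbp2b*, *Ubd*, *Serpina3g* and *Cxcl9*, with 74.0 CPM of *Fkbp5*, 18.3 of *Zbtb16*, 451 of *Sgk1* and 57.6 of *Tsc22d3*. Cycling endothelial-like cells of library 3 (subcluster 10) had 35.8 CPM of *Fkbp5*, above the 20.4 CPM of subcluster 4 in that library.

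**Figure D2:**
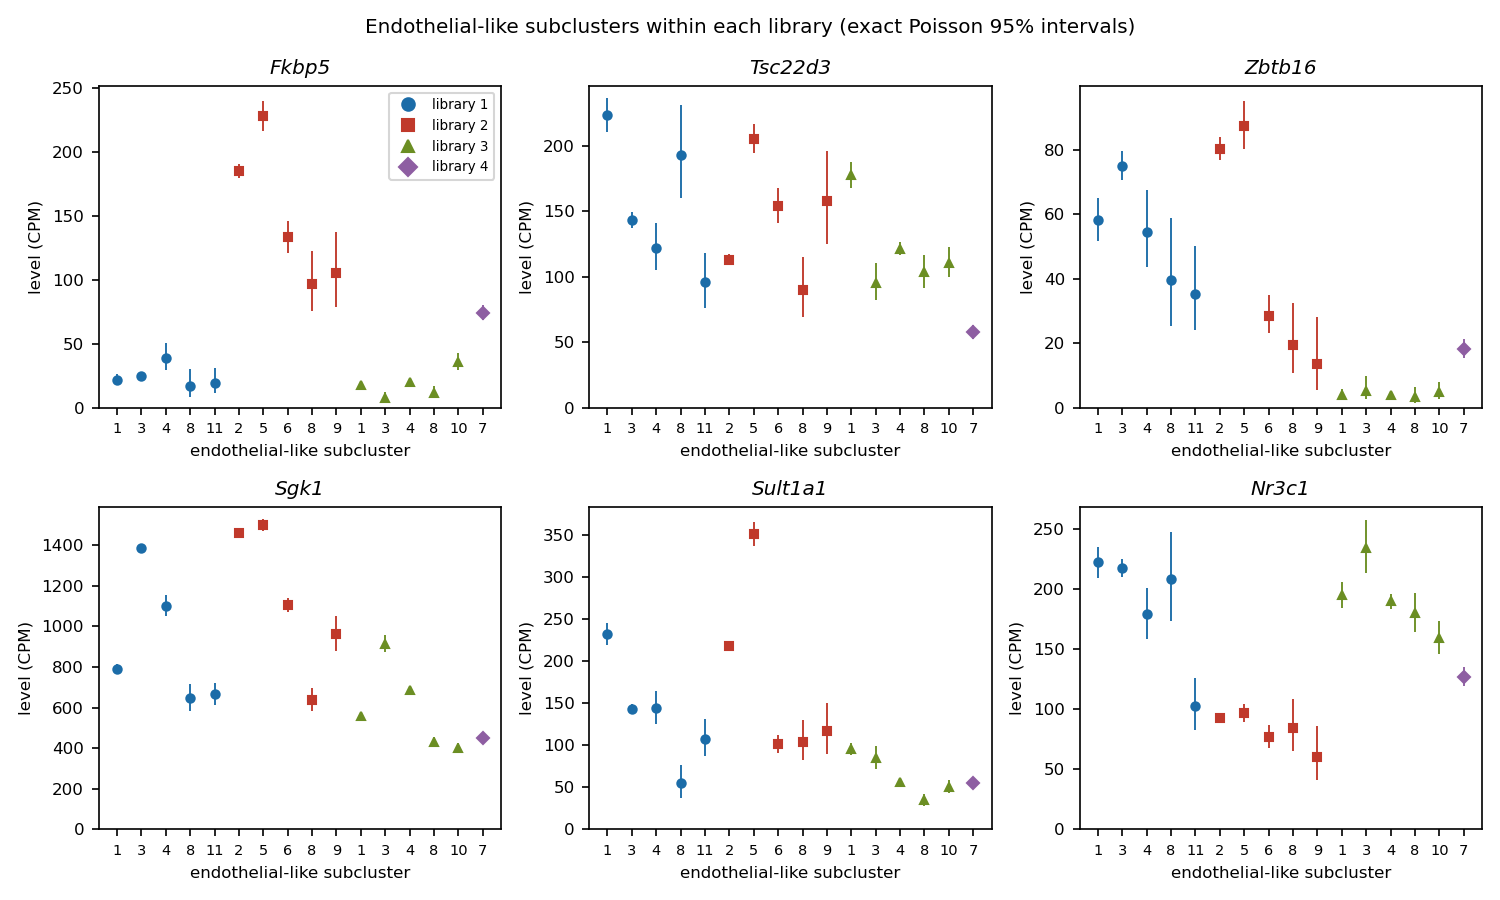
Levels (CPM) of the 6 genes in each endothelial-like subcluster with at least 50 cells in a library, with exact Poisson 95% intervals; colour and shape give the library. Every library 2 subcluster lies above every subcluster of libraries 1, 3 and 4 for *Fkbp5* and below all those of libraries 1, 3 and 4 for *Nr3c1*, and library 3 is at or under 5.27 CPM throughout for *Zbtb16*. The library 2 points include subclusters 6 and 9, whose endothelial-like name may depend on the setting.

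Fibroblast-like cells showed a different leading library. All 5 of the genes with at least 20 CPM in the class, that is all but *Sult1a1*, passed the 2-fold rule, as did 40.0% of its 6183 genes (11.8% with library 1 highest, 12.6% with library 2, 8.65% with library 3 and 6.95% with library 4). *Fkbp5*, *Tsc22d3*, *Zbtb16* and *Nr3c1* were highest in library 1, and *Sgk1* in library 2. A pair of fibroblast-like clusters were shared by libraries 1 and 3. In the cluster led by *Clec3b*, *Gsn* and *Inmt* (cluster 10, 1539 and 236 cells), *Fkbp5* was 119 CPM in library 1 and 39.8 CPM in library 3, a ratio of 2.99-fold (95% interval 2.47 to 3.63). There *Tsc22d3* was 413 and 161 CPM, 2.56-fold (95% interval 2.33 to 2.82), and *Zbtb16* 129 and 36.7 CPM, 3.51-fold (95% interval 2.89 to 4.31). *Nr3c1* in the same cells was level at 173 and 176 CPM, 0.983-fold (95% interval 0.895 to 1.08), and *Sgk1* nearly so at 199.8 and 163 CPM.

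The cluster led by *Cilp*, *Postn* and *Ptn* (cluster 6, 431 and 1621 cells), with matrix genes of activated fibroblasts, had lower levels. *Fkbp5* was 72.4 CPM in library 1 and 28.2 CPM in library 3, *Tsc22d3* 219 and 90.8 CPM, and *Zbtb16* 27.4 and 5.04 CPM, with ratios between the libraries of 2.57-fold (95% interval 2.31 to 2.85), 2.41-fold (95% interval 2.27 to 2.56) and 5.45-fold (95% interval 4.44 to 6.69). In both libraries these 3 transcripts were therefore higher in the *Clec3b* cluster than in the *Postn* cluster, and in both clusters they were higher in library 1. *Sult1a1* showed the same order at low levels, with 24.5 and 12.1 CPM in the *Clec3b* cluster and 11.1 and 3.06 CPM in the *Postn* cluster. *Nr3c1* was 152 and 131 CPM and *Sgk1* 150.2 and 161 CPM, ratios of 1.15-fold (95% interval 1.08 to 1.23) and 0.931-fold (95% interval 0.874 to 0.991). *Nr3c1* was thus also lower in the *Postn* cluster than in the *Clec3b* cluster in both libraries, and *Sgk1* was lower in library 1, while in library 3 its intervals overlapped. The fibroblast-like cells of library 2 (cluster 19, led by *Prg4*, *Cxcl5* and *Ptx3*) had 471 CPM of *Sgk1*, 56.1 of *Fkbp5*, 41.2 of *Zbtb16* and 37.9 of *Nr3c1*, and those of library 4 (cluster 23, led by *Timp1* and *Cxcl14*) had 163, 47.0, 5.77 and 71.3 CPM. Because each of these clusters lay in 1 library, cluster and library cannot be told apart for them.

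**Figure D3:**
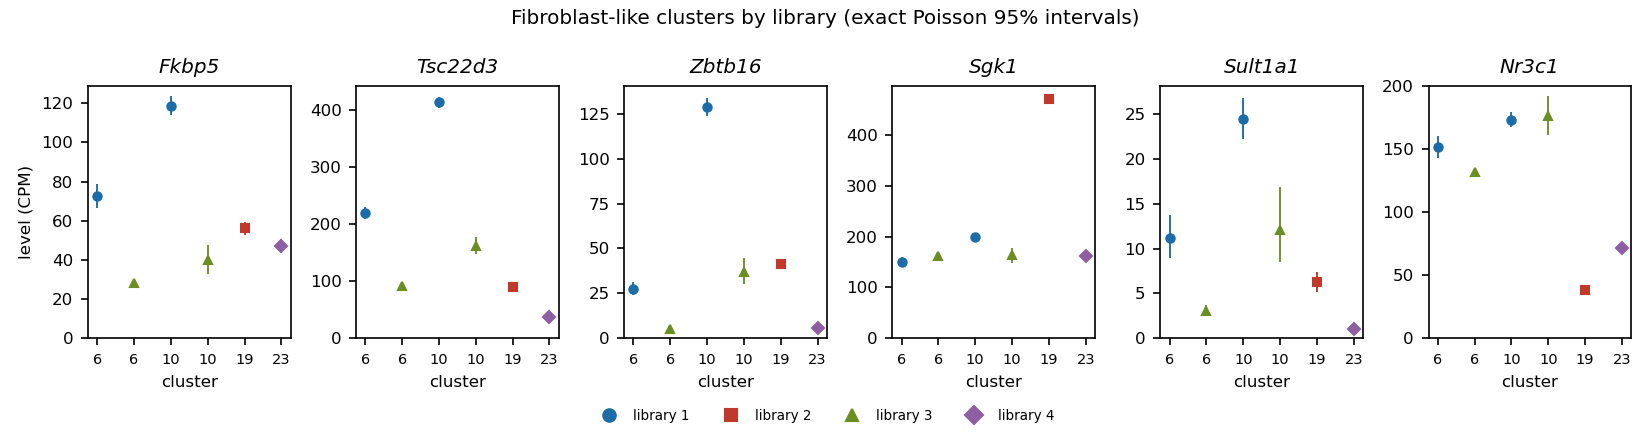
Levels (CPM) of the 6 genes in the fibroblast-like clusters by library, with exact Poisson 95% intervals. Clusters 6 and 10 each have a library 1 and a library 3 point, and for *Fkbp5*, *Tsc22d3* and *Zbtb16* the library 1 point is the higher in both (for *Zbtb16* 129 against 36.7 CPM in cluster 10).

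Macrophage-like cells carried *Fkbp5*, *Tsc22d3*, *Sgk1* and *Nr3c1* above 20 CPM, and 2 of these 4 passed the 2-fold rule (*Fkbp5* highest in library 2, *Tsc22d3* in library 1), beside 25.1% of 5377 genes (3.68% with library 1 highest, 6.38% with library 2, 4.78% with library 3 and 10.2% with library 4). The library 2 level of *Fkbp5* was uneven among their subclusters. The resident-like subcluster 9, led by *Cxcl13*, *Cd163* and *Lyve1* and named by *Folr2*, *Mrc1* and *Cbr2*, came from library 2 (242 of 252 cells). It had 211 CPM of *Fkbp5*, 272 of *Tsc22d3* and 65.9 of *Sult1a1*. Subcluster 5 of the same library, led by *Cxcl3*, *Lcn2* and *Arg1* (724 cells), had 63.4, 136 and 6.40 CPM. *Sgk1* and *Nr3c1* differed less between them, at 175 against 149 CPM and 79.3 against 66.3 CPM. Endothelial markers summed to 272 CPM in the resident-like cells and 169.5 CPM in those of subcluster 5, and *S100a8* and *S100a9* to 1403 and 5509 CPM. The part of these transcripts in the *Fkbp5* levels was not tested.

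A macrophage-like cluster led by *Fcrls*, *Ms4a7* and *Apoe* (cluster 11), which also holds *Cx3cr1* and *Mrc1* among its leading genes, had at least 50 cells in each of libraries 1, 2 and 3 (421, 148 and 1070 cells). Within it *Fkbp5* was 32.2, 216 and 13.4 CPM, and library 2 exceeded library 3 by 16.2-fold (95% interval 13.7 to 19.2). *Tsc22d3* was 283, 285 and 134 CPM, alike in libraries 1 and 2 and lower in library 3. *Sgk1* was 179, 152 and 189 CPM and *Nr3c1* 88.1, 77.2 and 81.8 CPM. *Sult1a1* was 32.6, 70.5 and 17.4 CPM, highest in library 2. At the finer division, drawn from all macrophage-like and dendritic-like cells, the resident-like subcluster held 242 cells of library 2. These exceed the 148 of cluster 11, so some came from other clusters. Subcluster 4 was made up almost wholly of libraries 1 (316 cells) and 3 (940 cells), so cell state and library cannot be told apart here. Subcluster 4, led by *Gdf15*, *Fcrls* and *Ms4a7*, had 34.6 and 11.7 CPM of *Fkbp5* and 273 and 135 CPM of *Tsc22d3* in libraries 1 and 3. Cluster 15, led by *Arg1* and *Ccl24*, held 124, 858 and 98 cells of libraries 1 to 3. Its *Fkbp5* was 19.0, 66.0 and 9.69 CPM, again highest in library 2. Its *Tsc22d3* was 201, 136 and 124 CPM, highest in library 1, and *Sult1a1* was lowest in library 2, as given above.

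In library 4, with 5872 macrophage-like cells, *Fkbp5* was 15 CPM in subcluster 1 (led by *Nos2*, *Ly6i* and *Cfb*), against 20.3 CPM in the infiltrating-like subcluster 3 (*Ly6c2*, *Plac8*), and subcluster 2 (*Ccl8*) had 20.5 CPM. *Sgk1* separated them: it was 182 and 184 CPM in subclusters 1 and 2 and 76.5 CPM in subcluster 3, a ratio of subcluster 2 to subcluster 3 of 2.40-fold (95% interval 2.26 to 2.55). The dendritic-like subcluster 7 had 59.9 CPM in the same library, against 113 CPM in the shallow dendritic-like class. The subclusters were drawn from macrophage-like and dendritic-like cells together, so this subcluster and that class can share cells. Nonclassical monocyte-like cells (subcluster 12, *Ear2* and *Ace*) had 317 CPM of *Sgk1* and 303 CPM of *Tsc22d3* in library 1 (66 cells), against 187 and 273 CPM in subcluster 4 of that library. Subcluster 8 of library 4, with 316 CPM of *Sgk1*, held 2837 CPM of endothelial markers, and the part of those cells in its level was not tested.

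**Figure D4:**
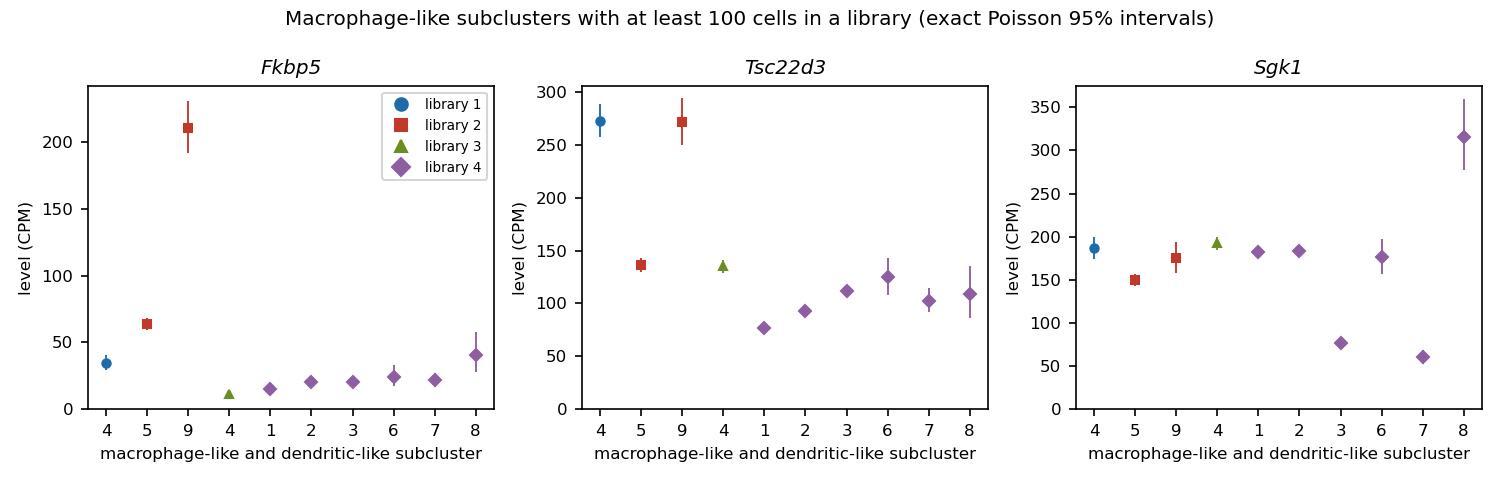
Levels (CPM) of *Fkbp5*, *Tsc22d3* and *Sgk1* in the macrophage-like and dendritic-like subclusters with at least 100 cells in a library, with exact Poisson 95% intervals. The resident-like subcluster 9 of library 2 stands at 211 CPM of *Fkbp5*, while *Sgk1* is lowest in subclusters 3 and 7 of library 4 and highest in subcluster 8, which also held endothelial markers.

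In T/NK-like cells 4 of the genes, all but *Zbtb16* and *Sult1a1*, had at least 20 CPM, and 3 of them passed the 2-fold rule (*Sgk1* and *Tsc22d3* highest in library 2, *Nr3c1* in library 3), beside 33.7% of 5622 genes (5.60% with library 1 highest, 6.74% with library 2, 2.56% with library 3 and 18.8% with library 4). Of the 166 T/NK-like cells of library 2, 160 lay in subcluster 5, which matched no T/NK type. The subclusters of library 4 differed in *Tsc22d3*. It was 191 CPM in the CD4 T-like subcluster 1, which has *Foxp3* among its leading genes, 179.6 CPM in the NK-like subcluster 4, whereas subcluster 3 had 24.1 CPM. The last was led by *Ifng*, *Ccl3* and *Zbtb32*. *Nr3c1* followed the same direction between subclusters 1 and 3, at 111 and 23.9 CPM, whereas *Fkbp5* was 28.3 and 29.0 CPM, with overlapping intervals. The cycling subclusters 2 and 8 of library 4 had 47.5 and 51.1 CPM of *Fkbp5*, above those values, and 54.8 and 139 CPM of *Tsc22d3*. The NK-like subcluster 7 of library 1 had 233 CPM of *Tsc22d3*.

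*Zbtb16*, whose protein is known in innate-like lymphocytes, was nearly absent from most T/NK-like subclusters, at 0.691 CPM in the CD4 T-like and 0.203 CPM in the larger cycling subcluster of library 4. It was 18.8 CPM in subcluster 5 of library 2, which was led by *Fabp4*, *S100a8* and *S100a9* and matched no T/NK type. In subcluster 6 it was 32.1 CPM (95% interval 21.5 to 46.1) over 165 cells. The leading genes of this subcluster were hemoglobin genes followed by *Cd163l1*, *Trdc* and *Tcrg-C1*, and it was left unnamed because markers of another class outnumbered those of T and NK cells among them. In its 83 cells of library 1 the level was 12.3 CPM, with an interval from 4.51 to 26.8. The same subcluster had the highest *Nr3c1* among T/NK-like subclusters, 321 CPM (95% interval 285 to 360.4). Granulocyte-like cells had no *Zbtb16* UMI in libraries 1 and 3 (94 and 252 cells, where 3 UMIs would be 7.47 and 3.78 CPM), and 5.36 CPM (95% interval 4.11 to 6.88) in the 2750 cells of library 2. Per 100 UMIs of the endothelial markers the library 2 level was 0.924, close to the 0.861 of endothelial-like cells of that library. The part of endothelial transcripts in it was not tested.

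The other genes of the pathway were taken from lists of 35 genes, chosen like the 6 with earlier results known. Of 19 further known targets of the receptor, 14 had at least 20 CPM in endothelial-like cells and 9 of these passed the 2-fold rule, with 4 highest in library 1, 4 in library 2 and 1 in library 4. Over all genes of the class 22.5% passed, 7.08% with library 1 highest, 4.36% with library 2 and 6.32% with library 4. Those led by library 2 were the metallothioneins *Mt1* (272, 1525, 140.4 and 364 CPM in libraries 1 to 4) and *Mt2* (51.8, 819, 24.4 and 164 CPM), which bind zinc and also respond to metals, *Angptl4* (28.9, 254, 75.5 and 101 CPM), an inhibitor of lipoprotein lipase, and *Txnip* (668, 762, 437 and 367 CPM). *Mt2* exceeded its lowest library by 33.6-fold (95% interval 31.3 to 36.0) and *Angptl4* by 8.78-fold (95% interval 8.12 to 9.51). As with *Fkbp5*, library 4 was above libraries 1 and 3 for *Mt1*, *Mt2* and *Angptl4*. The decoy receptor gene *Il1r2* was under 20 CPM in the class but had 1.32, 43.0, 1.33 and 9.31 CPM.

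The targets led by library 1 in endothelial-like cells were *Klf9* (492, 214, 259.9 and 111 CPM), a transcription factor, *Per1* (143, 60.8, 49.1 and 52.8 CPM), a clock gene, *Zfp36* (2063, 875, 1167 and 565 CPM), which encodes an mRNA decay factor, and *Ddit4* (178, 154, 151 and 82.7 CPM), an inhibitor of mTORC1 signalling. Library 1 was also highest for 9 of 11 immediate early and heat shock genes, all but *Hspa1a* and *Hspa1b*, and for all 5 circadian genes above 20 CPM, such as *Egr1* (4043, 943, 1357 and 626 CPM) and *Dbp* (325, 15, 28.3 and 14.9 CPM). Each of these passed the 2-fold rule, and 7.08% of all genes of the class did so with library 1 highest. These lists hold genes that respond to tissue digestion and to the hour of collection, and their part in the levels of *Per1*, *Klf9*, *Zfp36* and *Tsc22d3* was not tested. *Anxa1*, which encodes annexin A1, was highest in library 4 (32.8, 38.2, 59.5 and 142 CPM). *Cebpd*, *Dusp1*, *Errfi1*, *Nfkbia* and *Cdkn1a* did not pass the rule, and *Dusp1*, the gene of a MAP kinase phosphatase, was 1169, 1193, 1015 and 751 CPM.

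**Figure D5:**
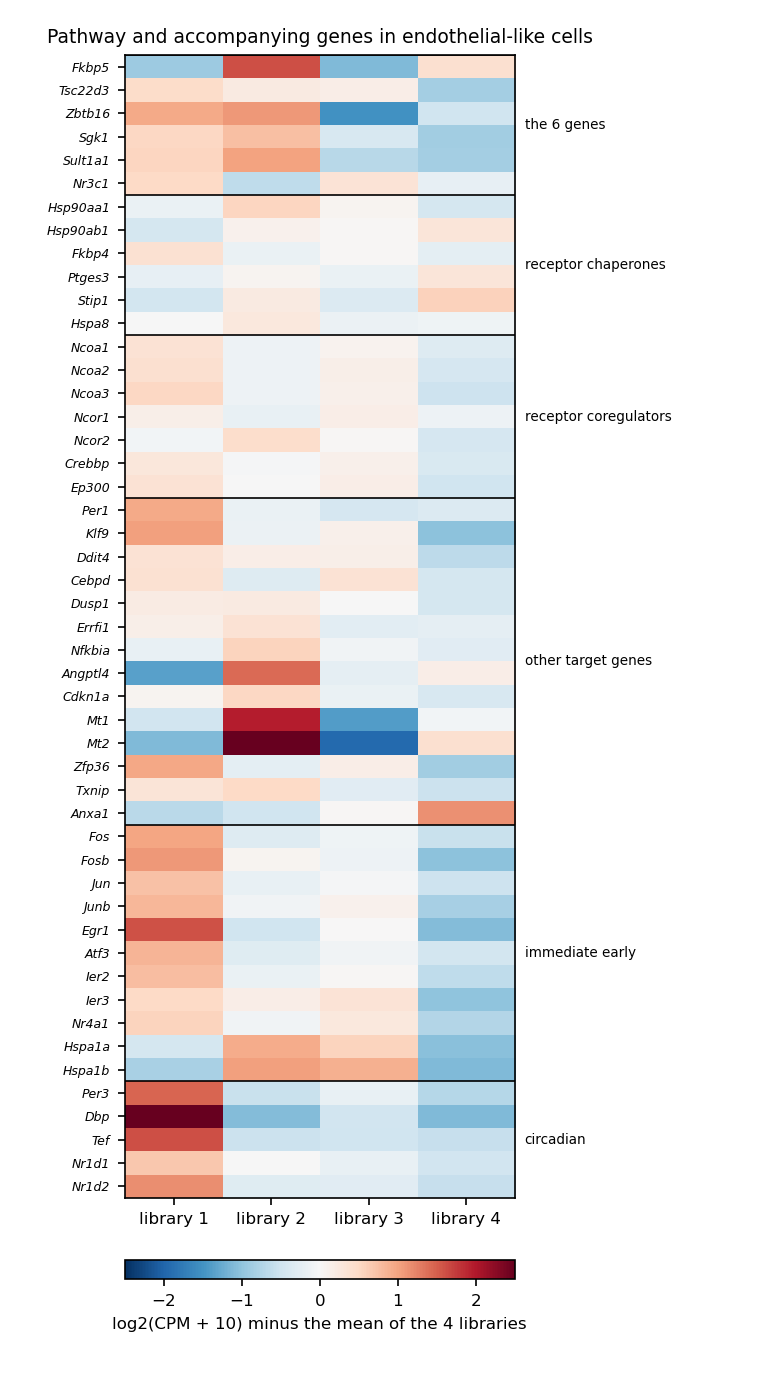
Colour map for endothelial-like cells of log2(CPM + 10) of each gene minus its mean over the 4 libraries, for the 6 genes, the receptor's chaperones, coregulators and other targets, and for immediate early and circadian genes with at least 20 CPM in the class. Red is above and blue below the mean of the libraries; *Mt1*, *Mt2* and *Angptl4* share the red library 2 cell of *Fkbp5*, and the circadian genes are red in library 1.

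The receptor chaperones and coregulators were also set against the 2-fold rule in endothelial-like cells. Among 6 chaperone genes only *Stip1* did so (41.2, 72.1, 44.8 and 93.6 CPM), while *Hsp90ab1*, which encodes the main HSP90 of unstressed cells, was 2017, 2979, 2813 and 3374 CPM and *Fkbp4*, which encodes the immunophilin that competes with the *Fkbp5* protein, was 92.6, 60.7, 71.1 and 56.5 CPM. *Fkbp4* was lowest in libraries 4 and 2, where *Fkbp5* was highest, but *Fkbp4* did not pass the rule. The opposite order was not kept in fibroblast-like cells, where *Fkbp4* was highest in library 2 and *Fkbp5* in library 1. Among 7 coregulators only *Ncoa3* passed (79.9, 47.8, 58.4 and 34.2 CPM). The share over all genes of this class was 22.5%, as above, so nothing is read from these counts. In fibroblast-like cells all 6 chaperones passed and were highest in library 2, beside 40.0% of all genes past the rule and 12.6% with library 2 highest, for example *Hsp90aa1* (552, 1167, 713 and 827 CPM) and *Stip1* (30.8, 137, 32.9 and 85.1 CPM). In T/NK-like cells 3 of 6 chaperones passed, all highest in library 4, beside 33.7% of all genes past the rule and 18.8% with library 4 highest.

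In fibroblast-like cells 13 of 14 further targets with at least 20 CPM passed the rule, 7 of them highest in library 1, 5 in library 2 and 1 in library 4. Over all genes of the class 40.0% passed, 11.8% with library 1 highest, 12.6% with library 2 and 6.95% with library 4. Library 1 led for *Cebpd* (1659.9, 631, 701 and 332 CPM) and *Klf9* (581, 159, 201 and 147 CPM), as it did for *Tsc22d3* and *Zbtb16*, and library 2 led for *Mt1* (4069, 15954, 1267 and 3947 CPM) and *Angptl4* (44.8, 509.9, 72.6 and 284 CPM). *Hsd11b1*, which encodes the enzyme that regenerates active corticosterone inside cells, was present in fibroblast-like cells and nearly absent from endothelial-like cells, with 205, 176, 42.3 and 48.8 CPM in fibroblast-like and 1.57, 6.45, 0.754 and 1.21 CPM in endothelial-like cells of libraries 1 to 4. In T/NK-like cells it was 102, 7.71, 76.3 and 62.3 CPM, above the fibroblast-like level in libraries 3 and 4. *Nr3c2*, the gene of the mineralocorticoid receptor, was low in endothelial-like cells (10.9, 1.85, 5.45 and 3.39 CPM), and *Hsd11b2*, whose enzyme inactivates corticosterone, did not exceed 0.785 CPM there.

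In macrophage-like cells 10 of 14 further targets passed the rule, 6 highest in library 2 and 4 in library 1, beside 25.1% of all genes of the class (6.38% with library 2 highest and 3.68% with library 1). The library 2 group held *Cd163*, the hemoglobin scavenger receptor (31.3, 183, 17.5 and 0.401 CPM), *Ddit4* (23.2, 84.3, 23.5 and 8.60 CPM), *Errfi1* (69.9, 119.7, 47.6 and 19.3 CPM), *Il1r2* (53.8, 196, 35.5 and 84.6 CPM), *Mt1* (834, 2556, 883 and 473 CPM) and *Mt2* (82.5, 662, 75.6 and 40.1 CPM). *Cd163* and *Mt2* were also leading genes of the resident-like subcluster of library 2, in which *Fkbp5* was high as well.

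The 6 genes did not form 1 pattern over the data. Over 35 class-by-library units of at least 50 cells, which include the unnamed cells and share 4 libraries and their depths, Pearson's r of log2(CPM + 1) was 0.85 between *Sgk1* and *Sult1a1*, 0.68 between *Zbtb16* and *Sgk1* and 0.54 between *Fkbp5* and *Sgk1*. *Tsc22d3* had r of -0.01 with *Zbtb16*, -0.05 with *Sgk1* and 0.24 with *Fkbp5*. *Nr3c1* had r of 0.46 with *Tsc22d3* and 0.32 with *Fkbp5*. Pairs without *Tsc22d3* had r from 0.32 to 0.85. By the levels given above, the genes grouped here as glucocorticoid responsive did not all share 1 leading class or 1 order of libraries. *Sgk1* and *Sult1a1* did share both, with endothelial-like cells leading and their libraries in the order 2, 1, 3 and 4. Among 7697 genes with at least 50 CPM in some unit, those most like *Fkbp5* were *Xbp1* (r = 0.82), *Fosl1* (0.74) and *Cxcl5* (0.73). The nearest to *Tsc22d3* were *Ssh2* (0.89) and *0610030E20Rik* (0.86), and to *Zbtb16* *Slc10a6* (0.82), *Klf9* (0.80) and *Pgf* (0.80). *Sgk1* was most like *Thbd* (0.90), *Bvht* (0.90) and *Lrrc8a* (0.90), *Sult1a1* like *Kank3* (0.91), *Ablim3* (0.91) and *Nos3* (0.90), and *Nr3c1* like *Herc1* (0.89), *Sp1* (0.88) and *Phf21a* (0.88). The genes nearest to *Sgk1* and *Sult1a1* include *Thbd* and *Nos3*, which are known endothelial genes, and *Pgf* was itself a leading gene of the library 2 subcluster in which *Zbtb16* was high.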

How the data were processed

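The authors deposited whole-number UMI counts per gene and cell in 1 merged matrix, made with Cell Ranger 3.0.0 on mm10. The 6 genes and all gene lists were chosen with earlier results of these data known. Filters kept cells with over 200 genes detected and less than 20% of UMIs from mitochondrial genes, which were then removed, and the 5% of cells per library most like simulated doublets were left out. Log values of counts brought to a total of 10000 in each cell entered the clustering. The 2000 most variable genes, without the 6 genes, the pathway genes and the immediate early and circadian genes, gave 10 principal components, a graph of 30 neighbours and Leiden clusters at resolution 0.8 (subclusters at 0.5). A cluster was named from at least 3 markers, each in at least 10% of cells and 2-fold above the other cells.

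Levels were pooled CPM, so deep cells weigh more. Shares have exact Clopper-Pearson 95% intervals in the tables, and thinning drew 1000 UMIs per cell without shallower cells. The ratio rule counted genes of at least 20 CPM. No test between libraries was run, because libraries are not tied to grafts and there are no labelled replicates. The genes named were the 6, the pathway genes with the highest levels or past the ratio rule, and the 3 genes most like each of the 6, of which 1 is not reported here. Pathway genes given besides were picked after their values were seen. Total UMIs per library were 96020294 to 166079145. Gene coordinates came from GENCODE M21 and promoters from RefSeq. The interval and clustering code was tested on simulated data. Python 3.11.15, numpy 2.4.6, scipy 1.17.1, scikit-learn 1.9.0, igraph 0.11.9 and leidenalg 0.10.2 were used.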

Additional observations from a re-analysis of the deposited data

How the results depend on the processing

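No paired analysis was possible because no label ties a library to a graft or a replicate number to a library. Each level in the leading class and each endothelial-like ratio of highest to lowest library was recomputed. At resolution 1.6, 12 of 12 values moved by less than their counting interval. At resolution 0.4, *Fkbp5* was 80.1, *Sgk1* 1034 and *Sult1a1* 147.5 CPM in endothelial-like cells. The ratios there were 1.26-fold for *Tsc22d3* and 2.31-fold for *Sgk1*, over 3 libraries, because library 4 had 0 cells named endothelial-like at that setting. No pericyte-like or smooth muscle-like class was named then, so *Nr3c1* and *Zbtb16* have no level at that setting. With doublets kept, *Sult1a1* was 144 CPM. With cells weighted equally, *Fkbp5* was 80.5, *Sgk1* 1093, *Sult1a1* 162 and, in B-like cells, *Tsc22d3* 763 CPM, with ratios of 10.4-fold for *Fkbp5*, 2.81-fold for *Sgk1* and 5.13-fold for *Sult1a1*.

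Leaving out 1 library moved several values. The *Fkbp5* level ranged from 28.1 CPM without library 2 to 115 CPM without library 3, and its ratio from 3.74-fold without library 2 to 9.33-fold. The *Zbtb16* level ranged from 35.9 CPM without library 2 to 69.5 CPM without library 3, and its ratio from 4.08-fold without library 3 to 18.6-fold. The *Tsc22d3* level lay between 699 and 721 CPM and its ratio between 1.24-fold without library 4 and 2.75-fold. The *Sgk1* level lay between 805 and 1215 CPM and its ratio between 2.25-fold and 3.12-fold. The *Sult1a1* level lay between 95.7 and 182 CPM and its ratio between 2.9-fold and 4.13-fold. The *Nr3c1* level lay between 152 and 215 CPM and its ratio between 1.67-fold and 2.32-fold. The causes of these shifts were not tested.

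Shares of cells with a UMI fell with thinning to 1000 UMIs, from 31.0% to 7.53% for *Fkbp5*, 89.7% to 57.6% for *Sgk1* and 44.0% to 13.2% for *Sult1a1* in endothelial-like cells, from 85.7% to 43.3% for *Tsc22d3* in B-like cells, from 37.3% to 5.48% for *Zbtb16* in smooth muscle-like cells, and from 61.3% to 16.8% for *Nr3c1* in pericyte-like cells.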

Other observations

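The unnamed clusters held the same genes at levels of their own. A cluster led by the lymphatic genes *Ccl21a*, *Mmrn1* and *Prox1* (1653 cells) matched the endothelial class best. It was left unnamed because lymphatic markers outnumbered the endothelial ones among its leading genes. Its cells were mainly of libraries 1 and 3. *Sgk1* was 474 and 412 CPM in these libraries, *Sult1a1* 144 and 51.4 CPM, *Tsc22d3* 228 and 131 CPM, and *Zbtb16* 43.0 and 1.74 CPM. Library 1 was above library 3 for each of them, as in endothelial-like cells. A cluster led by *Cfd*, *Ptgds* and *Msln* likewise had 42.5 CPM of *Zbtb16* in library 1 and 6.77 CPM in library 3, and 214 against 96.4 CPM of *Tsc22d3*, while *Nr3c1* was 124 and 113 CPM.

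In library 2, a cluster of shallow cells led by *Selp*, *Csf3* and *Sprr1a*, with *Sele* and *Angpt2* among its leading genes (1836 cells, median of 882 UMIs), had 125 CPM of *Fkbp5*, 654 of *Sgk1* and 58.9 of *Nr3c1*. In library 4, a cluster led by *Trim30c*, *Slfn4* and *Asprv1* with the granulocyte gene *Hdc* (769 cells) had 387 CPM of *Tsc22d3* and 153 CPM of *Nr3c1*, against 52.5 CPM of *Sgk1* and 0.431 CPM of *Zbtb16*.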
